A study of Mus musculus with 3 samples.

Results

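The matrix metalloproteinases Mmp2, Mmp3, Mmp9, Mmp12, Mmp14 and Mmp19 and the tissue inhibitors of metalloproteinases Timp1, Timp2, Timp3 and Timp4 were followed through the cell types of the mouse aorta. These 10 genes, 6 proteases and 4 inhibitors, were taken by their symbols from the 32285 genes of the count tables, and each of the 10 had at least 1 unique molecular identifier (UMI) count in every library. The proteases are secreted or membrane-bound zinc enzymes that are made as inactive proenzymes and, once activated, cut collagens, elastin, proteoglycans and other matrix proteins. The inhibitors bind the active site of the proteases, and the balance between both families sets how much matrix an artery wall keeps or loses. In atherosclerosis this balance is best known for its part in plaque rupture, in aneurysm and in the migration of smooth muscle cells into the intima.

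The tissue was the whole aorta, from the arch to the iliac bifurcation, of male gene replacement mice on the C57BL/6J background whose own Apoe gene had been exchanged, at its locus, for a human one of the APOE2, APOE3 or APOE4 kind. All mice were 12 weeks old when they were put on a Western diet of 42% fat and 0.2% cholesterol, which they ate for 16 weeks, so no group on another diet and no mouse with its own Apoe gene entered these comparisons. The aortas were digested with an enzyme mix that held elastase and hyaluronidase, and 1 10x Genomics library was made per genotype from a pool of 6 mice for APOE2, of 5 for APOE3 and of 7 for APOE4. With 1 library per genotype, genotype and library cannot be told apart, no test between genotypes was possible, and every interval given here is a 95% interval for counting error only.

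The 3 libraries held 12288 (APOE2), 7247 (APOE3) and 8971 (APOE4) cell barcodes, of which 11772, 6737 and 8248 had at least 200 genes and under 20% mitochondrial UMIs and were kept. The kept cells held 168310501, 125105151 and 124926887 UMIs, and the median cell had 12047, 17618 and 13521.5 UMIs. Between 23 and 30 barcodes occurred in both libraries of a pair. Levels are counts per 1000000 UMIs (CPM) over all cells of a class summed, a scale on which 1 molecule counts once whatever the length of its gene.

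Cells were clustered without any Mmp or Timp gene among the features, and clusters were named from marker genes. Smooth muscle-like cells (10 clusters with Acta2, Tagln and Myh11; 7528, 4295 and 5587 cells in APOE2, APOE3 and APOE4), fibroblast-like cells (2 clusters with Dcn, Pdgfra and Lum; 1326, 712 and 1034 cells) and macrophage-like cells (1 cluster led by C1qa, C1qb, C1qc, Mrc1 and Lyz2; 558, 155 and 186 cells) were large enough for ratios between libraries. Endothelial-like (113, 15 and 21 cells), T lymphocyte-like (130, 25 and 110), B lymphocyte-like (41, 10 and 278) and neutrophil-like cells (80, 11 and 7) were used for levels only, and 5 clusters with mixed markers, low UMI counts or pericyte genes stayed unnamed. Free RNA reaches every droplet, so the B lymphocyte-like cells, which should make little of either family, served as the background. The APOE2, APOE3 and APOE4 B lymphocyte-like cells had median depths of 4221, 4869 and 3800 UMIs, lower than the 10492.5, 11194 and 9750.5 UMIs of the fibroblast-like cells.

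Each protease had 1 leading cell class, and for none of the 6 was it the smooth muscle-like class that made up most of the cells. Mmp2, Mmp3, Mmp14 and Mmp19 were highest in fibroblast-like cells, Mmp12 in macrophage-like cells and Mmp9 in neutrophil-like cells, in all 3 libraries. In each of these 18 cases the counting interval of the leading class lay apart from that of the next class. Of the inhibitors, Timp2 was led by the fibroblast-like class in every library. The lead rested on few cells for Timp1 and Timp4, and also for Timp3 in APOE2 and APOE3, where its leading class differed from that in APOE4.

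**Figure D1:**
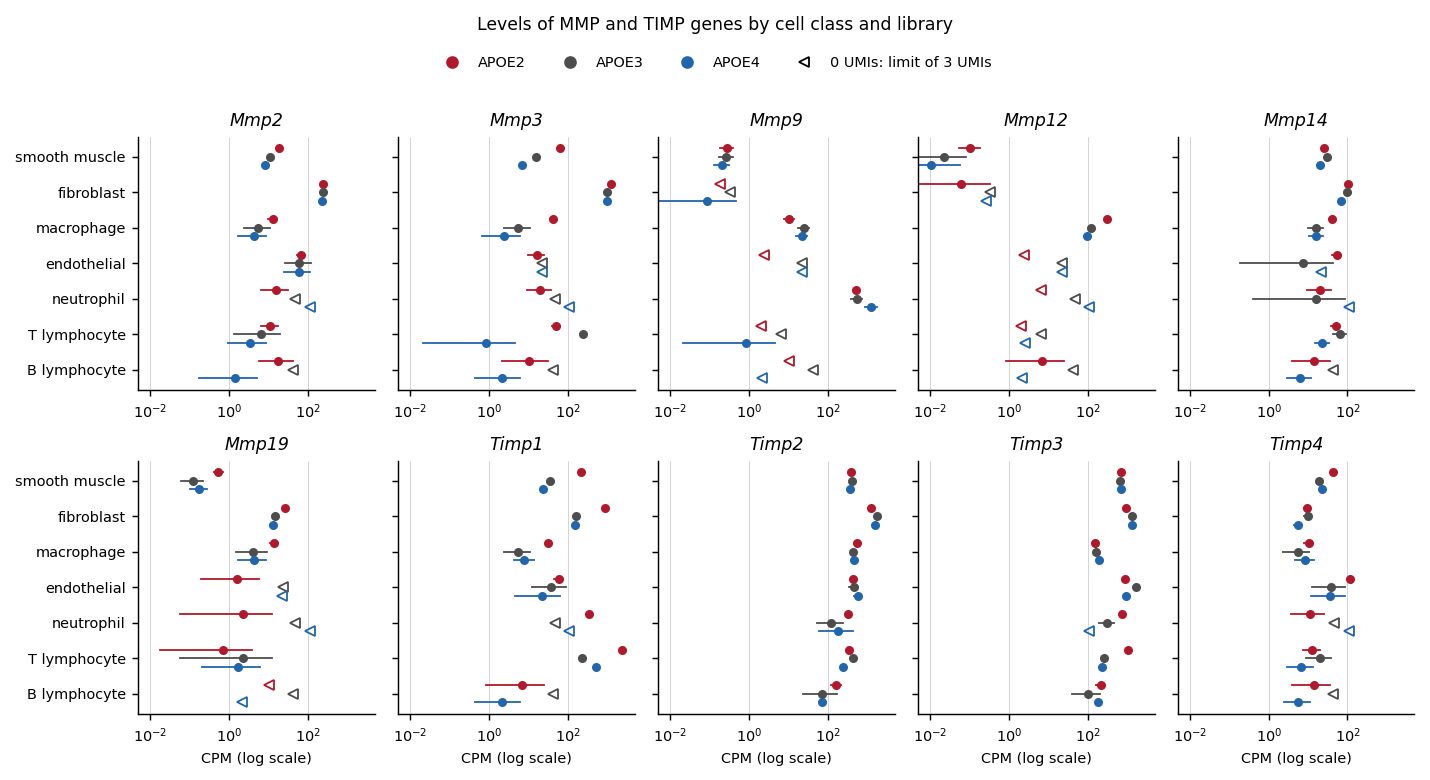
Level of each of the 10 genes (CPM of summed UMIs, log axis) in 7 cell classes, with 95% counting intervals as horizontal lines (drawn from 0.005 CPM upwards) and open triangles at the limit of 3 UMIs where a class held 0. Red, grey and blue are the APOE2, APOE3 and APOE4 libraries; fibroblast-like cells lead Mmp2, Mmp3, Mmp14, Mmp19 and Timp2, macrophage-like cells Mmp12 and neutrophil-like cells Mmp9 in all 3 colours.

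Mmp3, stromelysin 1, which cuts many matrix proteins and activates other proenzymes of the family, was the most abundant of the 6 proteases in summed UMIs of each library. Mmp23, which is not among them, had 117, 139 and 122 CPM in smooth muscle-like and 226, 376 and 320 CPM in fibroblast-like cells. Fibroblast-like cells of APOE2, APOE3 and APOE4 had 1228 (1211 to 1245), 975 (955 to 995) and 964 CPM (946 to 982). A UMI of Mmp3 was seen in 48.2, 45.9 and 42.5% of these cells, and in 28.7, 27.8 and 26.5% once every cell was thinned to 1000 UMIs, against 0 of 39, 9 and 278 thinned B lymphocyte-like cells, which allowed shares of up to 7.69, 33.3 and 1.08%. Mmp3 was thus detected in under 50% of the fibroblast-like cells of every library, and among these it was uneven: the 14, 8 and 11 cells with the most Mmp3, 1% of the class, held 29.9, 19.9 and 18.5% of its UMIs. Smooth muscle-like cells had 63.4 (61.9 to 64.8), 15.6 (14.8 to 16.4) and 6.92 CPM (6.40 to 7.46). The order of the 3 libraries was thus the same in both classes, but the distance between APOE3 and APOE4 was inside the counting interval in fibroblast-like cells and far outside it in smooth muscle-like cells.

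Mmp2, gelatinase A, cuts denatured collagen and basement membrane collagen and is switched on at the cell surface by Mmp14 together with Timp2. In fibroblast-like cells it was the most even of the members between the libraries, with 237 (230 to 245), 247 (237 to 257) and 235 CPM (226 to 244) in APOE2, APOE3 and APOE4. Endothelial-like cells came next with 67.5, 60.5 and 58.3 CPM, the last 2 from 8 UMIs each. Between 77.8 and 84.0% of fibroblast-like cells had a UMI of Mmp2, a larger share than for Mmp3 although its CPM was lower, and the top 1% of cells held only 8.07 to 9.52% of its UMIs.

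Mmp14 is the membrane-anchored collagenase that activates Mmp2. It reached 102 (97.4 to 107), 100.2 (93.8 to 107) and 70.2 CPM (65.4 to 75.2) in fibroblast-like cells of the APOE2, APOE3 and APOE4 libraries. Smooth muscle-like cells had less, at 25.6, 30.2 and 19.8 CPM, but because they were so many they held 51.6, 61.7 and 62.9% of all its UMIs. APOE4 was the lowest library in both classes, with intervals apart from those of APOE2 and APOE3. All members of the activation complex, Mmp2, Mmp14 and Timp2, were found in the same cell in 45.3, 49.3 and 35.6% of fibroblast-like cells. After thinning to 3000 UMIs the shares were 11.6, 12.2 and 8.74%, close to the 10.2, 10.96 and 8.13% that the product of the 3 separate shares gave.

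Mmp19, a secreted protease of basement membrane proteins, was low in every class. Fibroblast-like cells had 26.4 (24.0 to 29.0), 14.7 (12.3 to 17.4) and 13.1 CPM (11.1 to 15.4) in the order APOE2, APOE3 and APOE4, so that APOE2 stood above both others. Macrophage-like cells followed with 13.8, 4.10 and 4.28 CPM, from 69, 6 and 7 UMIs. No UMI of Mmp19 was counted in B lymphocyte-like cells, where the limit of 3 UMIs is 10.6, 43.2 and 2.11 CPM. In APOE3 this limit lay above the levels of both classes, so the 0 shows nothing there. In APOE2 and APOE4 the macrophage-like levels were close to it.

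Mmp12, the macrophage elastase, was the most restricted member: the macrophage-like cluster held 95.4, 98.9 and 97.6% of its UMIs in APOE2, APOE3 and APOE4. Its level there was 314 CPM (299 to 330), 122 (104 to 141) and 97.9 (83.4 to 114). Only 15.2, 6.45 and 10.8% of macrophage-like cells had a UMI of it, which were 85, 10 and 20 cells. By level the APOE2 interval lay above both others, and those of APOE3 and APOE4 overlapped, whereas by share the interval of APOE2 (12.4 to 18.5%) overlapped that of APOE4 (6.69 to 16.1%), and a single APOE3 cell held 111 of the 178 UMIs of that library.

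Mmp9, gelatinase B, is stored in the granules of neutrophils. It had 513 CPM (449 to 584), 547 (381 to 760) and 1250 (865 to 1746) in the neutrophil-like cells of APOE2, APOE3 and APOE4, which rested on 230, 35 and 34 UMIs in 80, 11 and 7 cells. A UMI was seen in 61.2, 81.8 and 85.7% of these cells, and the APOE4 interval, from 7 cells, lay above both others. Macrophage-like cells had 10.4, 24.6 and 22.0 CPM, and no UMI was counted in any endothelial-like or B lymphocyte-like cell, which allowed at most 2.44 CPM in the APOE2 endothelial-like cells.

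The members lie on 8 chromosomes in build GRCm38 (GENCODE vM21), and Mmp3 (chr9:7445822-7455975) and Mmp12 (chr9:7344381-7369499), both on the plus strand, are neighbours in the Mmp cluster. Mmp2 is at chr8:92827291-92853420, Mmp9 at chr2:164940780-164955850, Mmp14 at chr14:54431612-54445364 and Mmp19 at chr10:128790910-128800824, all on the plus strand. Timp1 is at chrX:20870166-20874735 and Timp3 at chr10:86300372-86349506 on the plus strand, and Timp2 at chr11:118301069-118355740 and Timp4 at chr6:115241892-115252205 on the minus strand. Although they are neighbours on chromosome 9, Mmp3 and Mmp12 were led by different cell classes in every library.

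Promoter sequences are shown for Mmp3, Mmp12, Timp1 and Timp4, members with large ratios between libraries, as the 250 bases before the RefSeq start in build GRCm38.p6. Capitals mark TGAGTCA, the AP-1 motif to which dimers of Fos and Jun proteins bind, searched on both strands, and it was found in 2 of the 8 starts that RefSeq gave for 7 of the 10 genes. The same letters were in 4.46% of all 32851 starts in that table. Mmp3 (chr9:7445572-7445821, plus strand) had the motif beginning 46 bases before the start, Mmp12 (chr9:7347124-7347373, plus strand, the downstream of its 2 starts) 44 bases before, and neither Timp1 (chrX:20869916-20870165, plus strand) nor Timp4 (chr6:115252206-115252455, minus strand) had it in this window.
Mmp3: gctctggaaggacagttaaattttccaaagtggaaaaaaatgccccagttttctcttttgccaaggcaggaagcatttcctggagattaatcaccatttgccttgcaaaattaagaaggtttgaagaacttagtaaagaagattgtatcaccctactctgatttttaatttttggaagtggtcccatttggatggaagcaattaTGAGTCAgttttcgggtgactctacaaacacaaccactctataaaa
Mmp12: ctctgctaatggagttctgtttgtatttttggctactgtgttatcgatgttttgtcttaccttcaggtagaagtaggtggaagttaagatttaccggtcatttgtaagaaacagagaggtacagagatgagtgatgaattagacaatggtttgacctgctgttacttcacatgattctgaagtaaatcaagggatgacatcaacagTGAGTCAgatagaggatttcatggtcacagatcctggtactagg
Timp1: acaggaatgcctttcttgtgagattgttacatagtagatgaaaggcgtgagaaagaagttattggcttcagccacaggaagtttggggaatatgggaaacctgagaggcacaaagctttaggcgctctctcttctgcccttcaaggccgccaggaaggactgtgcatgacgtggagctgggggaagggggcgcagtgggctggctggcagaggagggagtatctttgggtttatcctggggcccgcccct
Timp4: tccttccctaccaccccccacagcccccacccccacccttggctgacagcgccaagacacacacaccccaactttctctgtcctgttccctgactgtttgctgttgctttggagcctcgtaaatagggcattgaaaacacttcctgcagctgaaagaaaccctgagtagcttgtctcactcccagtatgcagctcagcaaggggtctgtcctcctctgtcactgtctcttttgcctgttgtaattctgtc
Beside its motif, the Mmp3 window held the letters TATAAA, which were in 12.4% of all starts, 7 bases before the start. Fos itself was at 1071, 1292 and 3211 CPM in fibroblast-like and at 2926, 3608 and 5702 CPM in smooth muscle-like cells of APOE2, APOE3 and APOE4. A match of letters is a description and says nothing of binding.

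Timp2, which inhibits most of the family and also serves as the adaptor for Mmp2 activation, was the inhibitor with the highest level in fibroblast-like cells in each library. Its levels in fibroblast-like cells, again for APOE2, APOE3 and APOE4, were 1266 (1249 to 1284), 1821 (1793 to 1849) and 1600 CPM (1577 to 1623), with a UMI in 99.3, 99.9 and 100% of the cells. Macrophage-like cells had 541, 444 and 457 CPM, smooth muscle-like cells 385, 410 and 366 CPM and endothelial-like cells 434, 462 and 575 CPM. The background in B lymphocyte-like cells was 162, 71.9 and 73.9 CPM, below all of these. In fibroblast-like cells APOE2 was thus the lowest library for Timp2, the reverse of its place for Timp1.

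Timp3 binds to the matrix and also inhibits shedding enzymes of the ADAM families. It was the member with the most UMIs in all, 116231, 88594 and 90571, most of them from smooth muscle-like cells at 721, 679 and 686 CPM. In fibroblast-like cells the levels were 941 (926 to 956), 1338 (1315 to 1362) and 1325 CPM (1304 to 1346), with APOE2 the lowest. Endothelial-like cells had 886 (834 to 940), 1650 (1438 to 1884) and 940 (785 to 1117), which put them first in APOE3 only. There 1 of the 15 cells held 81 of the 218 UMIs. With merged libraries, or without the 1% of cells richest in Timp3, fibroblast-like cells were first in APOE3. The 151, 163 and 198 CPM of macrophage-like cells were no higher than the 215, 101 and 188 CPM of B lymphocyte-like cells in APOE2 and overlapped them in interval in APOE3 and APOE4, so Timp3 in macrophage-like cells was read as background.

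Timp4, the inhibitor with the narrowest known expression and one found in heart and vessels, was highest in endothelial-like cells, which had 115 (97.3 to 136), 37.8 (12.3 to 88.3) and 36.4 CPM (11.8 to 85.0). Only 5 UMIs stood behind each of the last 2 values, and their intervals overlapped the next class. Smooth muscle-like cells had 44.1 (42.9 to 45.3), 19.1 (18.2 to 20.03) and 23.1 CPM (22.1 to 24.0) and held 77.0, 77.3 and 86.8% of all its UMIs. In these cells APOE2 stood far above APOE3, and APOE4 lay between them with an interval apart from both. Fibroblast-like cells had 9.17, 9.85 and 5.56 CPM, near the 14.1, 0 and 5.63 CPM of B lymphocyte-like cells.

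Timp1, a secreted inhibitor that is induced in injured and inflamed tissue, varied most of the 4 inhibitors between the libraries. Its levels were 858 (844 to 872), 161 (153 to 169) and 153 CPM (146 to 160) in the fibroblast-like cells of APOE2, APOE3 and APOE4. Smooth muscle-like cells had 212 (209 to 214), 36.1 (34.8 to 37.3) and 23.3 CPM (22.3 to 24.3). In both classes APOE2 was several-fold higher than the other libraries, while B lymphocyte-like cells had 7.06, 0 and 2.11 CPM. By summed CPM the T lymphocyte-like class led at 2395, 233 and 518 CPM, but 7, 3 and 6 cells with at least 10 UMIs of Timp1 held 3460 of 3464, 91 of 106 and 601 of 616 of these UMIs. Those cells held 3, 0 and 1 UMIs of all T lymphocyte markers together and had median depths of 59767, 54651 and 25197 UMIs, against 5509, 8097.5 and 6391 in the other cells of the class, where Timp1 was at 4.39, 50.9 and 15.3 CPM. The lead of this class was thus carried by cells without its markers, and its 1073 CPM of Timp3 in APOE2 was 163 CPM with clusters made at either of the other resolutions tried. The neutrophil-like class of APOE2 likewise held 344 CPM of Timp1 beside 2494 CPM of the fibroblast gene Dcn, against 0 UMIs of Timp1 and 15.6 and 0 CPM of Dcn in APOE3 and APOE4.

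Timp1, Timp3 and Timp4 lie within the synapsin genes Syn1, Syn3 and Syn2 on the opposite strand. The host genes held far fewer UMIs: 229, 180 and 233 for Syn1 beside 48790, 5421 and 4917 for Timp1, and 667, 268 and 277 for Syn2 beside 6501, 2213 and 2558 for Timp4. For Timp3 they were 6278, 3316 and 4084 for Syn3 beside the counts given above.

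Ratios between libraries were taken in the 3 large classes for members with at least 50 UMIs in both libraries together, and a ratio past 1.5 fold (0.58 on the log2 scale) in either direction was counted. Each library enters 2 of the 3 comparisons, so the comparisons are not independent of each other. The median log2 ratio of all genes was between -0.11 and 0.05, and it reached a size of 0.1 only in smooth muscle-like cells for APOE4 to APOE2 (-0.11) and in fibroblast-like cells for APOE4 to APOE3 (-0.10).

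In smooth muscle-like cells 5 of the 9 members with enough UMIs were higher in APOE2 than in APOE3 and 0 were lower, where 12.7% of all genes were past the fold in either direction. Their log2 ratios were 2.55 (2.50 to 2.61) for Timp1, 2.13 (1.19 to 3.2) for Mmp19, 2.02 (1.94 to 2.10) for Mmp3, 1.21 (1.13 to 1.29) for Timp4 and 0.72 (0.61 to 0.83) for Mmp2. Mmp19 entered only through its 61 UMIs in APOE2, against 11 in APOE3. Mmp2 was at 18.5, 11.2 and 8.08 CPM in APOE2, APOE3 and APOE4. B lymphocyte-like cells held 5, 0 and 2 UMIs of Mmp2, which was 17.7 CPM in APOE2. In APOE3, 3 UMIs of these cells are 43.2 CPM. Mmp2 in smooth muscle-like cells was thus not told apart from background in APOE2 and APOE3. Mmp14 was at -0.24, Timp2 at -0.09 and Timp3 at 0.09, all inside the fold. The median member was at 0.72 and the median gene at 0.05. Both the count of 5 and this median include Mmp19, so they give no support as they stand.

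Between APOE4 and APOE3, 3 of 7 members were lower in APOE4 smooth muscle-like cells and 0 were higher, against 11.5% of all genes past the fold. These were Mmp3 at -1.17 (-1.31 to -1.04), Timp1 at -0.63 (-0.71 to -0.55) and Mmp14 at -0.61 (-0.69 to -0.52). Timp1 and Mmp14 passed the fold by little, and centred on the median gene they were at -0.55 and -0.53. Between APOE4 and APOE2, 5 of 9 members were lower in APOE4 and 0 higher, against 17.6% of all genes. Here Mmp3 was at -3.19, Timp1 at -3.18, Mmp19 at -1.6, Mmp2 at -1.19 and Timp4 at -0.93, of which Mmp19, with 17 UMIs in APOE4, again entered only through APOE2. The library with the lowest Mmp3, Timp1, Mmp2 and Mmp14 in smooth muscle-like cells was APOE4, whereas for Timp4 it was APOE3. The median member was at -0.47 for APOE4 to APOE3 and at -0.93 for APOE4 to APOE2, beside -0.08 and -0.11 for the median gene. For APOE4 to APOE2 the count of 5 and the median include Mmp19, so they give no support as they stand. Mmp2 in APOE2 was not told apart from background, as given above.

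**Figure D2:**
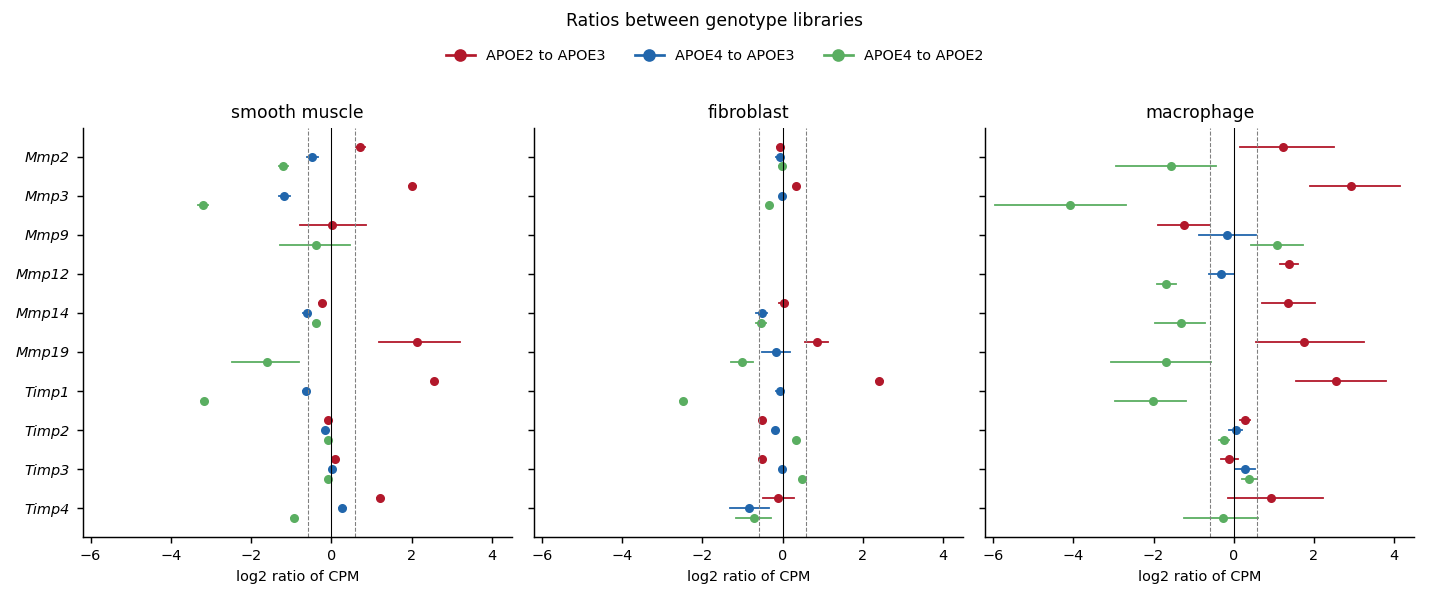
Log2 ratios of CPM with 95% counting intervals for each pair of libraries (red, APOE2 to APOE3; blue, APOE4 to APOE3; green, APOE4 to APOE2) in 3 cell classes; members with fewer than 50 UMIs in a pair are left out and dashed lines mark 1.5 fold. Timp1 lies above 2 for APOE2 to APOE3 in the smooth muscle-like and fibroblast-like panels, while Timp2 and Timp3 stay within the dashed lines. The smooth muscle-like ratio of Timp1 was 0.26 outside the cluster led by Spp1 and Vcam1. Its macrophage-like ratio, from 161 UMIs in APOE2 and 8 in APOE3, entered only through APOE2.

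The smooth muscle-like levels of Timp1 and Mmp3 rested on few cells. A UMI of Timp1 was found in 19.2, 19.9 and 14.3% of smooth muscle-like cells. These shares were not thinned, and the median cell of the whole libraries had 12047, 17618 and 13521.5 UMIs. The close values of APOE2 and APOE3 thus do not show equal detection at equal depth. The 76, 43 and 56 cells with the most Timp1, 1% of the class, held 83.8, 54.1 and 56.5% of its UMIs. The single richest cell had 3522 UMIs of Timp1 in APOE2, 348 in APOE3 and 354 in APOE4. Without the top 1% of cells the levels were 35.3, 16.8 and 10.3 CPM, and the log2 ratio of APOE2 to APOE3 went from 2.55 to 1.07. For Mmp3 the top 1% held 78.5, 71.2 and 77.2%, and without them the levels were 13.9, 4.55 and 1.6 CPM and the log2 ratio was 1.61. Timp4 was of another kind: the top 1% held 16.6, 15.5 and 17.3% of its UMIs, and without them the ratio was 1.19, next to 1.21 with them.

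**Figure D3:**
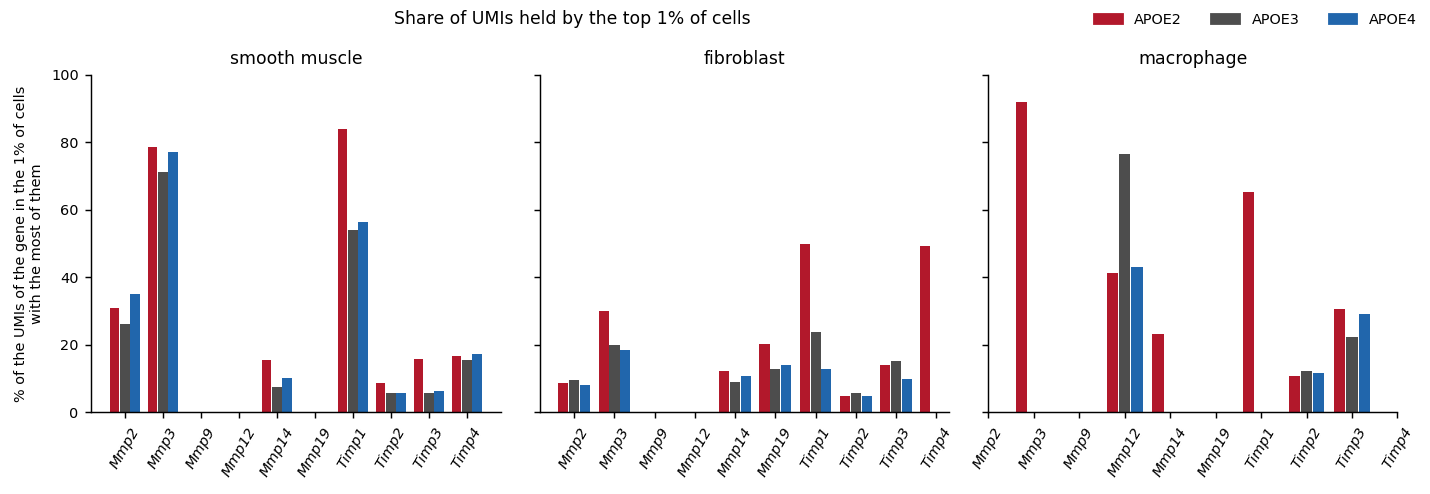
Percent of the UMIs of each gene that lay in the 1% of cells with the most of them, for members with at least 100 UMIs in a class and library (bars from 0; red, APOE2; grey, APOE3; blue, APOE4). In smooth muscle-like cells Mmp3 and Timp1 stand between 54.1 and 83.8%, whereas Timp2 and Timp4 are at or below 17.3%.

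Most of the Timp1-rich smooth muscle-like cells belonged to 1 cluster, which was led by Spp1, Vcam1, Lcn2, Anxa8 and Ttc9 and held 534 APOE2, 263 APOE3 and 294 APOE4 cells. Timp1 was at 1770, 295 and 218 CPM in this cluster and at 17.0, 14.2 and 9.37 CPM in the other 9 smooth muscle-like clusters. Between APOE2 and APOE3 this gave a log2 ratio of 2.59 (2.52 to 2.65) inside the cluster and of 0.26 (0.15 to 0.37) outside it. Cells with at least 10 UMIs of Timp1 made up 28.5, 15.2 and 6.80% of the cluster (152, 40 and 20 cells), against 12, 9 and 0 cells in the rest of the class. Taken singly, 4 of the 10 clusters were past 1.5 fold for Timp1, with APOE2 higher in 8, but outside the Spp1 cluster the summed ratio was under the fold. With clusters made at a coarser resolution of 0.4 the class had a ratio of 0.17 for Timp1 and 0.54 for Mmp2. At that resolution the cluster led by Spp1 and Vcam1 (385, 141 and 159 cells) kept only 5 of the 10 smooth muscle markers. It stayed unnamed and so was outside the class. At resolution 1.6 a cluster led by Spp1 and Lcn2 (234, 27 and 33 cells) kept 0 of these markers and also stayed unnamed. Whether the Timp1-rich cells are smooth muscle thus depended on the clustering.

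Mmp3 in the same cluster was at 370, 29.8 and 21.8 CPM, and at 25.1, 14.4 and 5.85 CPM in the other clusters. APOE2 exceeded APOE3 by a log2 ratio of 3.63 (3.43 to 3.84) inside and of 0.80 (0.70 to 0.90) outside, past 1.5 fold in both. B lymphocyte-like cells of APOE2, APOE3 and APOE4 held 3, 0 and 3 UMIs of Mmp3. In these cells 3 UMIs are 10.6, 43.2 and 2.11 CPM. The background thus rested on few UMIs, and its APOE3 limit lay above the 14.4 CPM of the other clusters. Its part in the Mmp3 levels outside the Spp1 cluster was not tested. In APOE2, 43 cells of the cluster had at least 10 UMIs of Mmp3, and 32 of these also had at least 10 of Timp1, which was 74.4% of the Mmp3-rich and 21.1% of the Timp1-rich cells. No cell of the cluster was rich in both in APOE3 or APOE4, where 5 and 4 cells were rich in Mmp3. Mmp2 (57.7, 35.8 and 37.6 CPM against 13.6, 9.12 and 5.97) and Mmp14 (55.9, 36.2 and 23.5 against 21.8, 29.7 and 19.6) were also higher in the cluster than in the others, except Mmp14 in APOE4, where the levels were close. Timp3 was at 1431 CPM in the APOE2 cells of the cluster, beside 814 and 881 in APOE3 and APOE4, whereas in the other clusters it was at 632, 667 and 672 CPM.

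Some markers of other cells moved with these values. In the cluster Dcn and Lum, which are among the 10 fibroblast markers, were at 2659 and 1854 CPM in APOE2. They were at 244 and 59.2 in APOE3 and at 294 and 58.0 in APOE4. The other fibroblast markers were not taken by library there, and 0 were counted as raised when the cluster was named over all libraries. The contractile gene Myh11 was at 930, 1369 and 1410 CPM against 2696 to 2758 in the other clusters. Myh11 is 1 of the 10 smooth muscle markers, of which the cluster kept 9 over all libraries in the main clustering. The limit for a marker to be kept was 50% of its level in all cells, so Myh11 does not stand for the whole list. Lcn2, whose product lipocalin 2 binds and stabilises Mmp9, was at 1065 CPM in the APOE2 cells of the cluster and at 0 in both others, and 93 of the 152 Timp1-rich APOE2 cells had at least 10 UMIs of it. Over the whole class, the 10 fibroblast markers summed to 1438, 1163 and 889 CPM in APOE2, APOE3 and APOE4. Of these sums Dcn alone made up 345, 38.6 and 31.9 CPM, so the sum of the markers differed far less than Dcn. The part of these cells in the class-wide ratios of Timp1 and Mmp3 is given by the values with and without the cluster, and what the cells are was not tested.

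Timp4 and Mmp3 differed across most clusters rather than in 1, and the part of background in these Mmp3 levels was not tested. Timp4 was past 1.5 fold higher in APOE2 than in APOE3 in 9 of the 10 smooth muscle-like clusters, with log2 ratios up to 1.89, and below APOE3 only in the cluster led by Fgf12 and Adamtsl1 (-0.30). APOE4 was below APOE2 for Timp4 in all 10 clusters, past 1.5 fold in 7. Mmp3 was lower in APOE4 than in APOE3 in all 10 clusters, past the fold in 9, and higher in APOE2 than in APOE3 in 9, past the fold in 6, while the remaining cluster was at -0.75. Mmp14 was lower in APOE4 than in APOE3 in all 10, past the fold in 6, whereas for Timp2 no cluster was past the fold in any pair. A UMI of Timp4 was found in 31.8, 24.9 and 24.9% of smooth muscle-like cells, and in 4.45, 1.92 and 2.12% after thinning to 1000 UMIs, against 0 of 39, 9 and 278 thinned B lymphocyte-like cells, which allowed shares of up to 7.69, 33.3 and 1.08%, so the share was above that limit in APOE4 only.

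**Figure D4:**
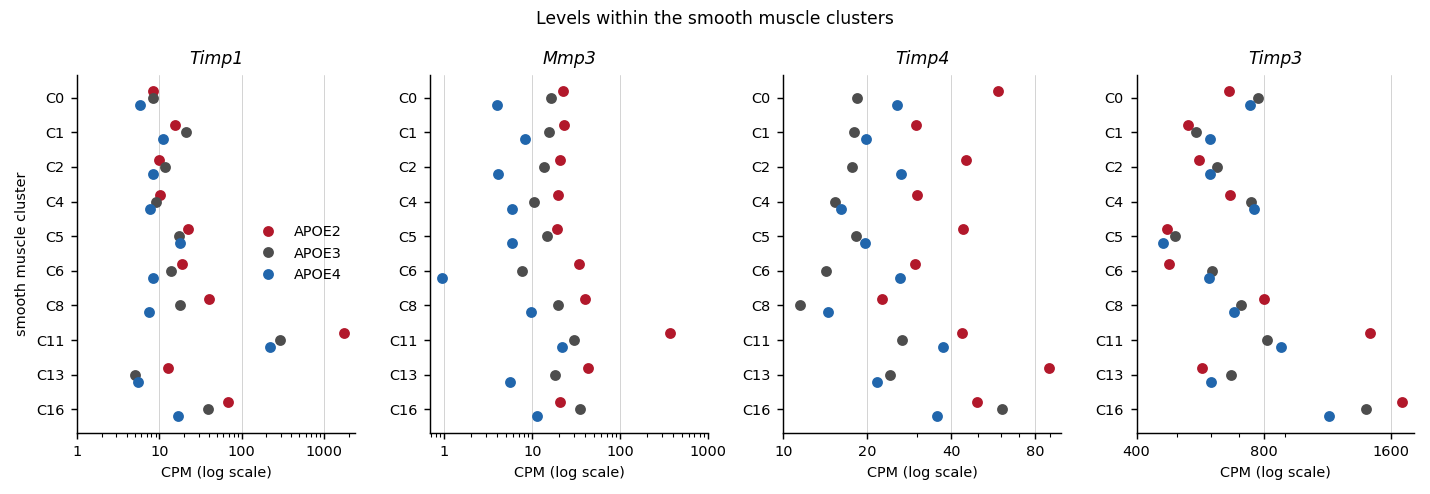
CPM (log axes) of Timp1, Mmp3, Timp4 and Timp3 in each of the 10 smooth muscle-like clusters, 1 point per library (red, APOE2; grey, APOE3; blue, APOE4). Timp1 reaches 218 to 1770 CPM in cluster C11, led by Spp1 and Vcam1, and APOE2 lies above APOE3 for Timp4 in every cluster but C16, led by Fgf12.

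Because the whole aorta was digested together, the class was also split by position-related genes, Hand2 against 6 Hox genes, according to which of them a cell held more of, with 2882, 1720 and 2331 cells left out for a tie or no UMI of either and 1732, 815 and 1124 of the cells within 1 UMI of the limit. The cells with more Hand2 had more Mmp2 than the cells with more Hox transcripts in every library, at 16.2, 14.3 and 8.63 CPM against 12.99, 7.45 and 5.97. Both APOE2 values were below the 17.7 CPM of Mmp2 in B lymphocyte-like cells, which rested on 5 UMIs. Timp2 was likewise higher in the Hand2 cells, with 385, 436 and 389 CPM against 345, 379 and 342. Timp1 showed no common order, since it was at 166, 42.5 and 18.8 CPM in the Hand2 cells and at 535, 30.3 and 21.8 in the Hox cells. Timp4 was higher in the Hox cells in APOE2 (59.7 against 39.3 CPM) and APOE4 (23.4 against 19.5) and level in APOE3 (17.5 against 17.9).

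In fibroblast-like cells 2 of 8 members were higher in APOE2 than in APOE3 and 0 lower, against 10.5% of all genes past the fold. These were Timp1 at 2.42 (2.34 to 2.49) and Mmp19 at 0.85 (0.57 to 1.14). Timp2 at -0.52 (-0.55 to -0.49) and Timp3 at -0.51 (-0.54 to -0.47) lay below 0 with narrow intervals but did not reach 1.5 fold. Thus the inhibitors went in opposite directions, and the summed CPM of all 4, which was 3074, 3330 and 3083 in APOE2, APOE3 and APOE4, differed little.

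Between APOE4 and APOE3, 1 of 8 members was lower in APOE4 fibroblast-like cells and 0 higher, against 10.2% of all genes, namely Timp4 at -0.83 (-1.31 to -0.35), from 64 against 90 UMIs at a level near the background. Between APOE4 and APOE2, 3 of 8 were lower and 0 higher, against 13.4% of all genes: Timp1 at -2.49 (-2.56 to -2.41), Mmp19 at -1.01 (-1.29 to -0.74) and Timp4 at -0.72 (-1.17 to -0.29). Mmp14, at -0.51 against APOE3 and -0.54 against APOE2, stayed just inside the fold. The share of members past the fold between APOE4 and APOE3 was thus near the background. The median member was at -0.02, -0.12 and -0.45 for APOE2 to APOE3, APOE4 to APOE3 and APOE4 to APOE2, beside -0.01, -0.10 and -0.07 for the median gene.

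Timp1 in fibroblast-like cells also had a long tail in APOE2, where 14 cells held 49.8% of its UMIs and the richest cell 1163, compared with 23.7% in 8 APOE3 and 12.9% in 11 APOE4 cells. Unlike in smooth muscle-like cells the ratio remained large without them, at 443, 126 and 136 CPM and 1.82 (1.73 to 1.91) on the log2 scale for APOE2 to APOE3. More of the APOE2 cells had a UMI, 74.6% against 64.7 and 62.1%, or 23.6% against 13.8 and 13.2% after thinning to 1000 UMIs. For Mmp3 the shares of thinned cells were 28.7, 27.8 and 26.5%, and without its top 1% of cells the levels were 878, 791 and 795 CPM.

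The class had 2 clusters, and they did not hold the same share of each library. The cluster led by Opcml, Sdk1 and Dpp4 held 611 of the 1326 APOE2, 226 of the 712 APOE3 and 268 of the 1034 APOE4 cells, and that led by Fmod, Inmt and Hhip held the other cells. Timp1 was at 1147, 111 and 124 CPM in the former and at 570, 188 and 164 CPM in the latter, so it was higher in APOE2 in both. Mmp3 was at 1247, 577 and 630 CPM in the Opcml cluster and at 1209, 1191 and 1096 CPM in the Fmod cluster, which placed the APOE2 excess in the Opcml cluster. Timp3 was lower in the Opcml cluster in all libraries, with 495, 753 and 1019 CPM against 1384, 1657 and 1445. Timp2 was at 1161, 2072 and 1868 CPM in the Opcml cluster and 1371, 1684 and 1494 in the Fmod cluster, so that the lower APOE2 level was found in both.

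The class was also split by lists that hold no member. Cells with more of the adventitial progenitor genes (Pi16, Dpp4, Ly6c1, Sema3c and Cd55) than of Hhip, Inmt, Cygb, Cxcl14 and Apod had 1332, 596 and 763 CPM of Mmp3, against 1179, 1190 and 1061 CPM in the cells with more of the latter. Mmp2 did not differ between both sides of the split by more than 1.5 fold in any library. The limit was within 1 UMI for 106, 35 and 92 cells.

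In macrophage-like cells 7 of 10 members were higher in APOE2 than in APOE3 and 1 was lower, against 18.7% of all genes past the fold. Of the members counted as higher, Mmp2, Mmp3, Mmp19, Timp1 and Timp4 had between 52 and 206 UMIs in APOE2 and 8 or fewer in APOE3, so they were counted only through the library in which they were high, as was Mmp14 with 199 and 23, and give no support as a count. The log2 ratio was 1.37 (1.15 to 1.6) for Mmp12, 1.34 (0.71 to 2.03) for Mmp14 and -1.24 (-1.88 to -0.59) for Mmp9. The levels of Mmp14 overlapped the background, as given below. Timp2, the most abundant member in these cells, was at 0.28 (0.16 to 0.41).

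None of the 4 members with enough UMIs was past the fold between APOE4 and APOE3 macrophage-like cells, where 17.3% of all genes were. Between APOE4 and APOE2, 6 of 10 were lower in APOE4 and 1 higher, against 19.4% of all genes. Mmp2, Mmp3, Mmp14, Mmp19 and Timp1 had 4 to 26 UMIs in APOE4 and entered only through APOE2, so this count too gives no support. Mmp12 was at -1.68 (-1.93 to -1.45), Mmp14 at -1.32 (-1.97 to -0.73) and Mmp9 at 1.09 (0.43 to 1.73). The levels of Mmp2 (12.8, 5.46 and 4.28 CPM) and Timp4 (10.4, 5.46 and 8.57 CPM) overlapped the 17.7, 0 and 1.41 CPM and the 14.1, 0 and 5.63 CPM of B lymphocyte-like cells in interval and were read as background. Mmp14, at 39.7, 15.7 and 15.9 CPM, also overlapped B lymphocyte-like cells in interval, which held 4, 0 and 9 UMIs of it. Over the whole class Mmp14 was thus not told apart from background. Mmp3 in the APOE2 class held 206 UMIs, 116 of them in 1 cell, and its level of 41.1 CPM was 3.51 CPM without the 6 richest cells. With other ways of forming the class, the ratios of Mmp2 and Mmp3 for APOE4 to APOE2 turned to 0.47 and 0.87 (merged libraries) and that of Timp4 for APOE2 to APOE3 to -0.96 (doublet removal), and as a mean of the CPM of single cells Mmp12 for APOE4 to APOE2 was at -0.39. The smooth muscle gene Acta2 was at 4135, 9529 and 6303 CPM in the class, and its part in these values was not tested.

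Mmp12 lay almost wholly on 1 side of a split of the macrophage-like cluster, a split that gives a range and not a type of cell. The class was split by whether a cell held more UMIs of Spp1, Gpnmb, Fabp5, Trem2 and Cd9, genes of lipid-laden foam cells, or of Lyve1, Folr2, Cd163, F13a1 and Cbr2, genes of resident macrophages. The foam-gene cells were 229 of the 506 split cells in APOE2, 39 of 140 in APOE3 and 65 of 170 in APOE4, and 88, 21 and 22 cells lay within 1 UMI of the limit. Mmp12 was at 603, 330 and 231 CPM in the foam-gene cells and at 6.52, 2.31 and 0 CPM in the resident-gene cells. It was seen in 32.8, 23.1 and 26.2% of the former and in 2.53, 0.990 and 0% of the latter, where 0 of 105 APOE4 cells allowed a share of up to 3.45%. Within the foam-gene cells APOE2 exceeded APOE3 by a log2 ratio of 0.87 (0.64 to 1.10), against 1.37 in the whole class, and the foam-gene share of the split cells was 45.3, 27.9 and 38.2%.

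Mmp9 was at 0, 11.2 and 4.45 CPM in foam-gene cells and at 22.6, 34.7 and 36.3 CPM in resident-gene cells. Its share of cells with a UMI was 0, 10.3 and 1.54% in the former and 6.14, 11.9 and 9.52% in the latter, so the shares were apart in interval in APOE2 but not in APOE3 or APOE4, where 1 resident-gene cell each held 14 UMIs. Mmp14 followed Mmp12 in APOE2 (66.7 against 9.99 CPM) and APOE3 (37.5 against 2.31 CPM) but was close to level in APOE4 (17.8 against 14.3 CPM, from 12 and 13 UMIs). Over the whole class its levels overlapped the background, as given above. Timp2 was at 601, 462 and 557 CPM in the resident-gene cells against 499, 425 and 317 in the foam-gene cells, higher beyond counting error in APOE2 and APOE4 but not in APOE3. Foam-gene and resident-gene cells had median depths of 8416 and 7057 UMIs in APOE2, 9421 and 7891 in APOE3 and 9005 and 7409 in APOE4.

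**Figure D5:**
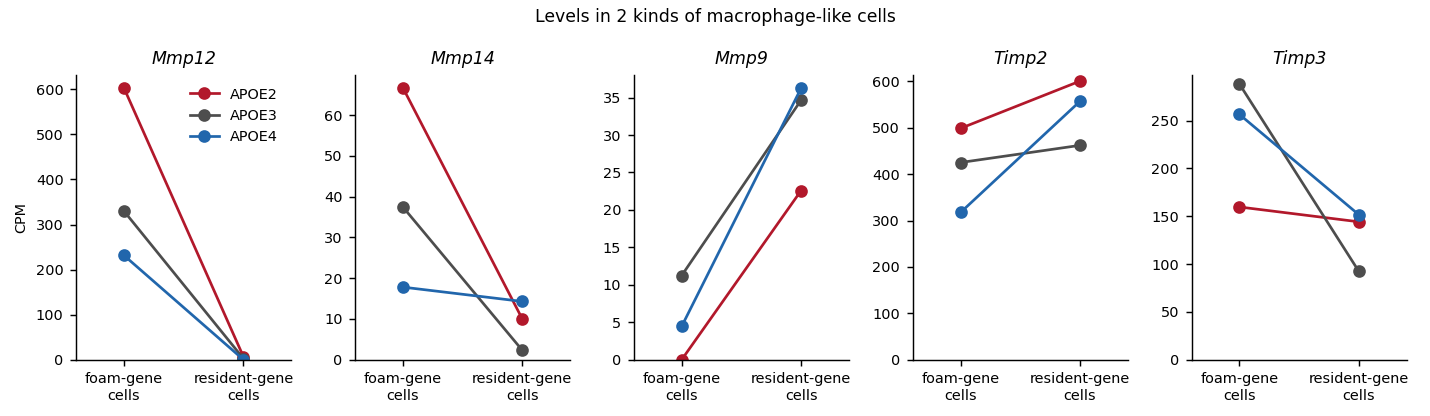
CPM (linear axes from 0) of Mmp12, Mmp14, Mmp9, Timp2 and Timp3 in macrophage-like cells with more UMIs of foam-cell genes or of resident-macrophage genes, 1 line per library (red, APOE2; grey, APOE3; blue, APOE4). Mmp12 stands at 231 to 603 CPM in the foam-gene cells and at most at 6.52 CPM in the resident-gene cells, and Mmp9 at most at 11.2 CPM in the former and at 22.6 CPM or more in the latter.

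The summed UMIs of the 4 inhibitors exceeded those of the 6 proteases in all 3 large classes. There were 12.6, 19.9 and 31.2 inhibitor UMIs per protease UMI in the smooth muscle-like cells of APOE2, APOE3 and APOE4, 1.93, 2.49 and 2.40 in fibroblast-like cells and 1.70, 3.49 and 4.57 in macrophage-like cells. For these 6 proteases APOE2 had the lowest ratio in each class. With all other listed Mmp genes added to the proteases, an alternative chosen after seeing the data, the ratios were 4.71, 4.42 and 5.03 in smooth muscle-like, 1.63, 1.88 and 1.85 in fibroblast-like and 1.45, 2.39 and 2.76 in macrophage-like cells, so that APOE2 was no longer the lowest in smooth muscle-like cells. In smooth muscle-like cells the protease sum was 108, 57.4 and 35.2 CPM and the inhibitor sum 1362, 1144 and 1098 CPM, so the protease sum of the 6 differed more than the inhibitor sum. Mmp3 alone held 7198 of 12310 (APOE2), 1398 of 5145 (APOE3) and 666 of 3390 (APOE4) of these protease UMIs. The top 1% of cells held 78.5, 71.2 and 77.2% of this Mmp3, so the protease sum rested largely on 1 gene in few cells in APOE2. These are ratios of transcripts and not of enzyme activity.

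The wider pathway was covered by lists of 16 other Mmp genes and 25 regulators and partners. Of the other Mmp genes, 15 were in the tables and 9 had at least 50 UMIs in a large class. In smooth muscle-like cells 1 of 7 was higher in APOE2 than in APOE3 (Mmp16, 0.65) and 1 lower (Mmp25, -0.69), beside 12.7% of all genes past the fold. Mmp25, an anchored protease known from leukocytes, was also higher in APOE4, by 1.47 against APOE3 and by 2.17 against APOE2, and Mmp16 was lower in APOE4 than in APOE2 (-0.83). Of all genes, 11.5% passed between APOE4 and APOE3 and 17.6% between APOE4 and APOE2. In fibroblast-like cells Mmp23 was lower in APOE2 than in APOE3 (-0.73, 1 of 6), 0 of 6 passed the fold between APOE4 and APOE3, and Mmp17 (0.60) and Mmp28 (-0.69) did between APOE4 and APOE2. Of all genes, 10.5, 10.2 and 13.4% passed in these pairs. Mmp28, with 31 UMIs in APOE4 and 71 in APOE2, entered only through APOE2. In macrophage-like cells Mmp16 (1.87) and Mmp23 (-0.87) passed between APOE2 and APOE3 (2 of 3), Mmp13 (0.61, interval including 0) between APOE4 and APOE3 (1 of 2) and Mmp23 (0.95) between APOE4 and APOE2 (1 of 3), where 18.7, 17.3 and 19.4% of all genes passed. Mmp16, with 50 UMIs in APOE2 and 4 in APOE3, entered only through APOE2, so the count of 2 of 3 gives no support. Mmp23 was at 23.2, 42.3 and 44.7 CPM in the macrophage-like cells of APOE2, APOE3 and APOE4. B lymphocyte-like cells had 53.0, 43.2 and 35.9 CPM of it, so Mmp23 in macrophage-like cells was read as background.

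Of the 25 regulators, 3 of 22 were higher and 3 lower in APOE2 than in APOE3 smooth muscle-like cells, beside the 12.7% of all genes past the fold. Those higher were Lcn2, with 14409 UMIs in APOE2 against 2 in APOE3, thrombospondin 1 (Thbs1, 1.25), which binds Mmp2 and Mmp9, and the elastin-cutting cathepsin Ctss (1.03), which was at 0.616 and 0.301 CPM there beside 1473 and 615 CPM in macrophage-like cells. The 10 macrophage markers summed to 12.7, 5.23 and 7.56 CPM in the smooth muscle-like class of APOE2, APOE3 and APOE4, and their part in Ctss was not tested. Lcn2 and Ctss (70 UMIs in APOE2 and 27 in APOE3) entered only through APOE2, so the count of 3 higher gives no support. Those lower were tissue plasminogen activator (Plat, -0.91), the serine protease inhibitor Serpine2 (-0.71) and the proprotein convertase Pcsk5 (-0.65). Between APOE4 and APOE3, Ctss (0.92) and the Mmp9 docking receptor Cd44 (0.60) were higher and the collagen-cutting cathepsin Ctsk lower (-0.61), of 21 (11.5% of all genes). Ctss, with 55 UMIs in APOE4 and 27 in APOE3, entered this pair only through APOE4. Between APOE4 and APOE2, urokinase (Plau, 0.92) was higher and Lcn2 and Thbs1 (-1.26) lower, of 22 (17.6% of all genes). Lcn2, with 1 UMI in APOE4, again entered only through APOE2.

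In fibroblast-like cells 5 of 22 regulators were higher in APOE2 than in APOE3 (10.5% of all genes passed the fold), namely Lcn2 (6.47; 184, 2.08 and 2.95 CPM in APOE2, APOE3 and APOE4), Thbs1 (1.44), Pcsk5 (1.05), the urokinase receptor Plaur (0.82) and the protease inhibitor Tfpi2 (0.71, with an interval that included 0), and Thbs2 (-0.93) was lower. Lcn2 (3005 UMIs in APOE2 and 19 in APOE3) and Tfpi2 (44 and 15) entered only through APOE2, so the count of 5 higher gives no support. Between APOE4 and APOE3 only Plaur (0.64) passed, of 21 (10.2% of all genes). Between APOE4 and APOE2, Lcn2 (-5.96), Thbs1 (-1.43) and Pcsk5 (-1.09) were lower, of 22 (13.4% of all genes). Lcn2, with 34 UMIs in APOE4, again entered only through APOE2. Thbs1 was higher in APOE2 than in APOE3 in both stromal classes, and so was Lcn2, which entered only through APOE2 in both.

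In macrophage-like cells 7 of 19 regulators were higher in APOE2 than in APOE3 and 4 lower, beside 18.7% of all genes past the fold. Higher were the lysosomal cathepsins Ctsl (2.11), Ctss (1.26) and Ctsk (0.70), Plaur (1.54), Cd44 (1.49), Thbs1 (1.02) and the convertase Furin (0.63), which activates Mmp14. Plaur (278 UMIs in APOE2 and 28 in APOE3), Thbs1 (132 and 19) and Ctsk (50 and 9) entered only through APOE2. Lower were Serpine2 (-1.64), Plat (-1.25), Pcsk5 (-0.91) and the integrin Itgb3 (-0.77), and the intervals of Ctsk and Itgb3 included 0. Between APOE4 and APOE3, Plaur (2.17), Cd44 (1.21) and Plau (0.87) were higher and Serpine2 (-1.03), Pcsk5 (-0.97) and Plat (-0.67, interval including 0) lower, of 15 (17.3% of all genes). Plaur, with 141 UMIs in APOE4 and 28 in APOE3, entered this pair only through APOE4. The summed smooth muscle markers in this class, 10040, 20954 and 14094 CPM in APOE2, APOE3 and APOE4, moved with Serpine2 (127, 393 and 193 CPM), Plat (8.59, 20.5 and 12.9 CPM) and Pcsk5 (17.8, 33.5 and 17.1 CPM), all of which were higher in smooth muscle-like cells, and their part in these ratios was not tested. Between APOE4 and APOE2, 4 of 19 were higher (Plau, Plaur, Serpine2 and Itgb3, between 0.59 and 0.64, the interval of Itgb3 including 0) and 6 lower (19.4% of all genes). Lower were Ctsl (-1.86), Ctss (-1.52), Thbs1 (-1.26), Ctsk (-0.86, interval including 0), the cathepsin Ctsb (-0.76) and the shedding enzyme Adam10 (-0.61). Thbs1 (18 UMIs in APOE4 and 132 in APOE2) and Ctsk (9 and 50) entered only through APOE2.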

How the data were processed

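The deposited files were raw UMI count matrices, 1 per library, which the authors made with Cell Ranger (version 7.0.1 per the file headers) against mm10; no other step by the authors entered these values. Cells with at least 200 genes and under 20% mitochondrial UMIs were kept. Libraries were normalised with SCTransform (sctransform 0.4.2) and integrated and clustered in Seurat 5.3.0 under R 4.3.3 on 3000 variable genes, 30 components and resolution 0.8, with the 13 Mmp and Timp genes among the variable genes left out. Clusters were named from marker lists, and a cluster with markers of more than 1 class, pericyte genes in the lead or a low UMI count stayed unnamed. Scrublet (scanpy 1.11.5) marked 1, 0 and 2 cells by its own threshold, which has not worked, so no doublets were removed in the main values and 9.42, 5.39 and 6.60% of cells with the highest scores were removed in an alternative.

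UMIs were summed by class and library into CPM with exact Poisson intervals (scipy 1.17.1, numpy 2.4.6, pandas 2.3.3, Python 3.11.15). Log2 ratios had exact conditional binomial intervals and shares Clopper-Pearson intervals, all at 95% and for counting error only. A ratio was counted when past 1.5 fold with at least 50 UMIs in both libraries together. Of a class with 0 UMIs the limit of 3 UMIs is given. For shares, each cell was thinned to 1000 UMIs, or 3000 for co-detection. All 10 members are named; other pathway genes are named where they passed the fold. The members and lists were chosen with earlier results of these data known. Scripts were tested on simulated data. Gene positions came from GENCODE vM21 (GRCm38), which held 32235 of the 32285 features, and promoters from RefSeq (GRCm38.p6). Figures were drawn with matplotlib 3.10.9.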

Additional observations from a re-analysis of the deposited data

Results flagged for a closer look

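Pcsk5, the proprotein convertase 5/6 that can activate proenzymes of the family, differed in opposite directions between APOE2 and APOE3 in different cell classes, which is why it is given here. Its log2 ratio was -0.65 in smooth muscle-like cells, 1.05 in fibroblast-like cells and -0.91 in macrophage-like cells. Its levels were 67.9, 107 and 75.8 CPM in the smooth muscle-like, 141, 68.2 and 66.3 CPM in the fibroblast-like and 17.8, 33.5 and 17.1 CPM in the macrophage-like cells of APOE2, APOE3 and APOE4. The summed smooth muscle markers in the macrophage-like class were 10040, 20954 and 14094 CPM and moved with Pcsk5 there, and their part in that ratio was not tested. With 1 library per genotype the difference between classes was not tested.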

How the results depend on the processing

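Of the 34 ratios past 1.5 fold, all 34 remained so with at least 500 genes and under 10% mitochondrial UMIs per cell, with at least 1000 UMIs per cell and with a minimum of 10 UMIs, 32 with the Mmp and Timp genes among the clustering features or with ratios centred on the median gene, 30 each with Scrublet scores, resolution 0.4, resolution 1.6 or merged libraries, and 29 each with classes set cell by cell or with the mean CPM of cells. Chosen after seeing the data, all clusters with smooth muscle markers kept 33, leaving out cells over 3 medians of UMIs 33, leaving out the cluster led by Spp1 and Vcam1 30, and leaving out the 1% of cells richest in the member 22. A ratio was also taken as lost where it was past the fold but its UMIs fell below the minimum.

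Directions reversed in macrophage-like cells only: Timp4 for APOE2 to APOE3 (-0.96, Scrublet), and for APOE4 to APOE2 Mmp2 (0.47 merged, 0.058 cell by cell) and Mmp3 (0.87 merged, 0.28 cell by cell). The count of members past the fold for APOE4 to APOE3 in macrophage-like cells, 0 in the main values, was 1 with Scrublet, the mean CPM or the richest cells left out and 2 with resolution 1.6, merging, cell by cell or 10 UMIs. In fibroblast-like cells it was 1 and became 0 with the family in the clustering, the mean CPM or the richest cells left out and 2 cell by cell, and for APOE4 to APOE2 it went from 3 to 5 with the family in the clustering. In smooth muscle-like cells it went from 5 to 2 for APOE2 to APOE3 at resolution 0.4 and without the Spp1 cluster, and from 3 to 1 for APOE4 to APOE3 after centring. Leaving out the richest cells took the macrophage-like counts from 8 of 10 to 3 of 5 (APOE2 to APOE3) and from 7 of 10 to 3 of 5 (APOE4 to APOE2). Only 5 members still had enough UMIs there, and 19.1 and 19.4% of all genes passed the fold after the same trimming. Under the other settings of this paragraph the share of all genes was not taken, so nothing is read from their counts. Members with a higher share of fibroblast-like cells in APOE2 than in APOE3, intervals apart, went from 1 to 2 without thinning. This count was not taken over all genes, so nothing is read from it. The causes of the changes between settings were not tested. Over 15 alternatives, APOE2 to APOE3 ratios ranged from 1.16 to 1.30 for Timp4 and from 0.71 to 2.10 for Mmp3 in smooth muscle-like cells, from 1.74 to 2.72 for Timp1 in fibroblast-like cells and from 1.03 to 2.69 for Mmp12 in macrophage-like cells, past the fold in each. The leading class changed under an alternative for Timp1, Timp3 and Timp4 only. No paired analysis was possible because each genotype had 1 library.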

Other observations

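An unnamed cluster with both endothelial and smooth muscle markers, led by Emcn, Klk10 and Vwf, held 216 APOE2, 375 APOE3 and 50 APOE4 cells, with median depths of 55398, 21003 and 28042 UMIs. Timp1, the injury-induced inhibitor, was at 453, 36.3 and 62.6 CPM there, and the APOE2 cells of the cluster held 12.9% of all Timp1 UMIs of their library. Mmp3 was at 181, 66.2 and 349 CPM and Timp4 at 51.6, 19.3 and 19.9 CPM. A cluster led by the pericyte gene Rgs5 (616, 422 and 391 cells) had 8.97, 9.85 and 7.42 CPM of Timp1, 576, 741 and 695 CPM of Timp3 and 3.84, 2.26 and 3.57 CPM of Mmp3. Both clusters stood outside the classes compared above.

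Lcn2, which binds Mmp9, was counted in classes of APOE2 that held almost none in the other libraries. Endothelial-like cells had 269 CPM in APOE2, from 331 UMIs, and 0 UMIs in the 15 APOE3 and 21 APOE4 cells. Of the 331 UMIs, 173 lay in 2 of the 113 APOE2 cells. The fibroblast gene Dcn was at 948, 90.8 and 21.9 CPM in this class of APOE2, APOE3 and APOE4, and the part of other cells in these values was not tested. Neutrophil-like cells, which store lipocalin 2 in granules, had 5386, 812 and 1139 CPM.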
